A study of Danio rerio with 12 samples.

Results

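The genes described here encode the machinery that copies DNA, and the question is how their transcript levels differ along the tail end of the zebrafish embryo. They were matched by gene symbol alone, with a fixed list of symbol patterns that was chosen with earlier results of these data known. The patterns cover the replicative helicase, the origin recognition complex, the replicative polymerases and the sliding clamp with its loader. They also cover nucleotide supply and the proteins that rebuild chromatin behind the fork. Of 8793 genes that the array's annotation names by a single symbol, 60 matched, on 67 probe sets, and where a gene has several probe sets the brightest on average stands for it. Of these 60 genes, 56 were bright enough to be tested. The pattern for cdc7 also caught cdc73, which encodes a subunit of the Paf1 transcription elongation complex and no replication factor. It was kept in all counts because the rule selects it.

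Wild-type AB zebrafish embryos were raised at 23 °C to the 12-somite stage and cut by hand into pieces of the paraxial mesoderm, the tissue that segments into somites. All samples share that strain, stage and temperature, and the labels name no transgene and no drug. Position 1 is the middle of the tailbud, called center tailbud in the labels. Position 2 is the tissue flanking the tailbud, where replicate 1 is the left and replicate 2 the right side. The presomitic mesoderm (PSM), the unsegmented tissue ahead of the tailbud, was cut into posterior (position 3), center (position 4) and anterior (position 5) pieces. Position 6 is the last 2 somites to have formed. Each position has 2 arrays that the labels call biological replicates, 12 in all. The labels do not state how many embryos a sample holds.

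DNA replication starts when the origin recognition complex, with Cdc6 and Cdt1, loads rings of MCM proteins onto DNA. In S phase, kinases and the factors Cdc45 and GINS turn these rings into active helicases. DNA polymerase alpha with primase then starts new strands, and polymerases delta and epsilon extend them on the PCNA clamp, using nucleotides that ribonucleotide reductase and thymidylate synthase help to make. The tailbud holds the progenitors that supply the growing presomitic mesoderm, and cells become part of older tissue the further forward they lie.

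The measured quantity is the Affymetrix MAS5 signal, a linear intensity per probe set scaled so that the trimmed mean was 150 on every array. Array medians nevertheless ran from 27.3 to 68.4, lowest in the last somites and highest in the tailbud flank and the PSM, so the effect of a further scaling is given where it matters. At the ends of the axis, markers were set against the labels. The signal of tbxta, the brachyury gene of tailbud progenitors, was 1949.5 and 1390.0 on the center tailbud arrays and 31.2 and 33.8 on the somite arrays. The signal of ttn.2, a titin gene of muscle, ran the other way, from 31.4 and 37.3 to 1854 and 2102. The muscle actin gene actc1a read 92.9 and 1445 on the center tailbud arrays, so its replicates differed there. A piece of tissue is a mixture, so fewer replicating cells and less RNA per cell cannot be told apart in these values.

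The replication genes as a group were highest in the center tailbud. In limma's model over all arrays, 17 of the 56 tested genes were higher in the center tailbud than in the mean of the other 5 positions at an adjusted p under 0.05, against 2.89% of all 10851 tested probe sets called higher. None was called lower, against 3.54% of all probe sets. At an unadjusted p under 0.05 the counts were 35 higher and 0 lower, where 17.1% of all probe sets passed in either direction. The median difference over the 56 genes was 0.59 log2 units, against -0.01 over all tested probe sets. Of the 56, 51 lay above 0, against 49.2% of all tested probe sets. In 24 genes (42.9%) both center tailbud arrays exceeded all 10 other arrays, against 4.41% of all tested probe sets, and both were below all others in 0 genes, against 3.56%. All 17 called genes are among these 24. The call and the separation come from the same arrays, so the separation adds no support. The mean signal peaked at position 1 for 42 of the 56 genes, against 17.7% of all probe sets, and was lowest there for 0 genes. The heatmap of all 56 genes shows the center tailbud columns as the only pair that is red through most rows. The genes mcm6l, rrm2b, dut, pole3 and ccne1 are those with a difference below 0. Other rows, such as prim1 and chaf1b, lie above 0 but peak at position 2.

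**Figure D1:**
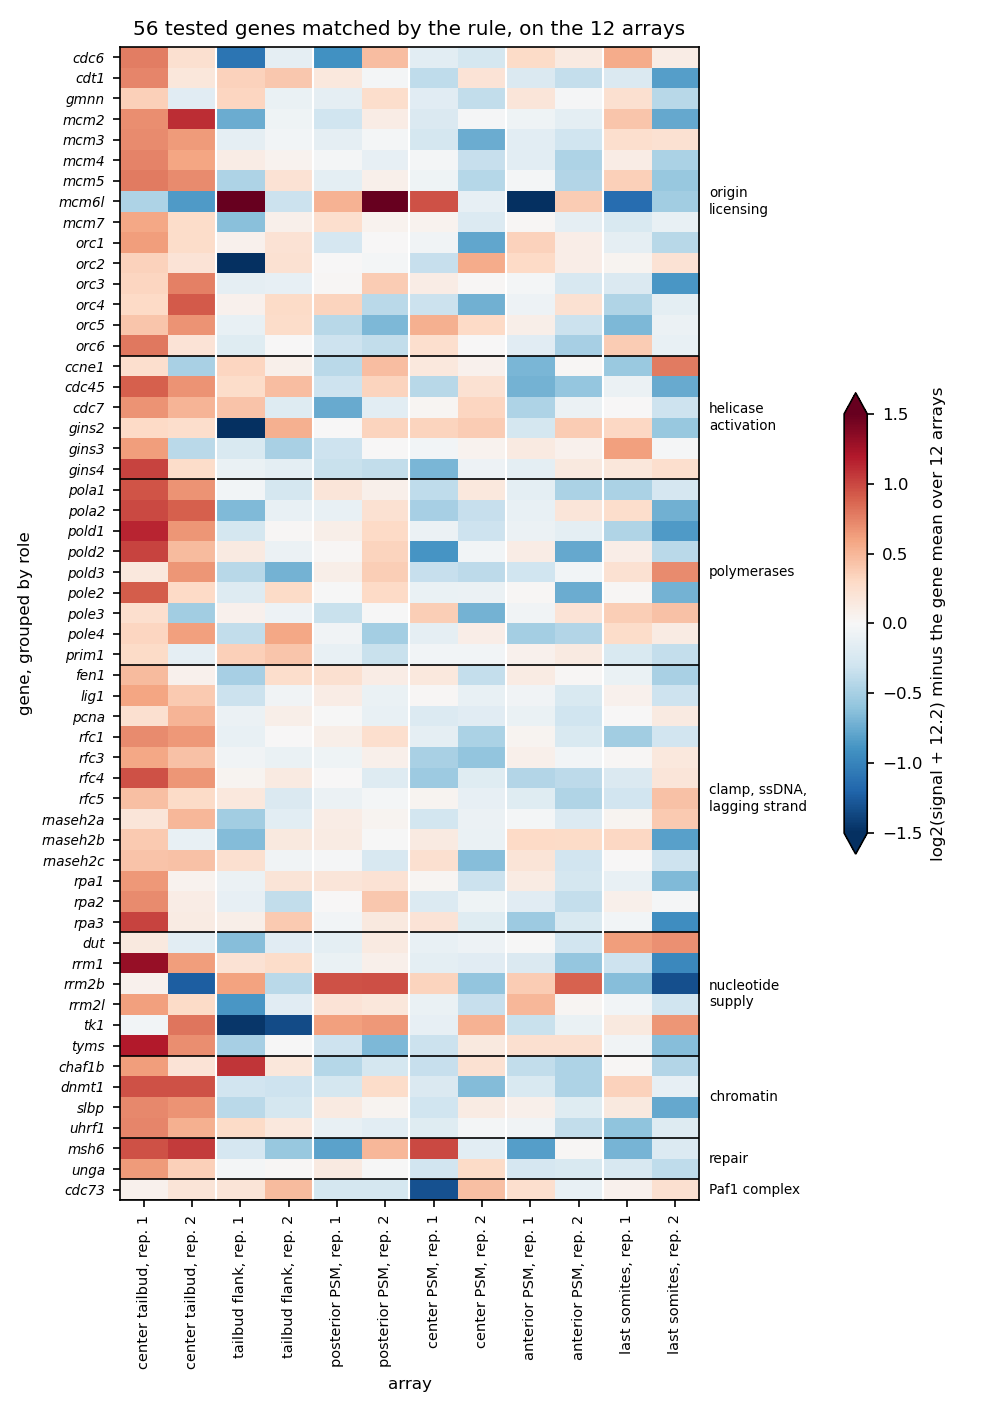
Each row is a gene, grouped by role, and each column an array, from the center tailbud at left to the last somites at right. Colour gives log2(signal + 12.2) minus the gene's mean over the 12 arrays, and both center tailbud arrays exceed all 10 others in 24 of the 56 rows.

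These counts rest on 2 center tailbud arrays. Without replicate 1 of the center tailbud 2 of the genes were called (dnmt1 and mcm2), and without its replicate 2 the count was 9, in fits where the lone array is assumed to vary like the other positions. The count was also 2 (dnmt1 and pold1) when the variances were not modelled on intensity, while the members' median difference stayed between 0.51 and 0.72 log2 units over the fits that left out an array.

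Among the 15 tested licensing genes, which load the helicase onto origins, 4 were higher in the center tailbud, against 2.89% of all probe sets. All 4 encode subunits of the MCM ring. The signal of mcm2 was 2038 and 2725 on the center tailbud arrays, and the other 10 arrays ran from 735 through a median of 1164 to 1677. The groups did not overlap, although the somite replicates were far apart at 1677 and 735. The difference was 1.08 ± 0.23 log2 units (SE; 2.12-fold; adjusted p = 0.00582). For mcm5 the center arrays read 1472 and 1396 against 569 to 1089 elsewhere (median 792), a difference of 0.89 ± 0.22 (adjusted p = 0.0139). For mcm3 they read 986 and 942.5 against 354 to 715 (median 544), and for mcm4 they read 1049 and 944 against 442 to 674 (median 586). Both genes differed by 0.81 log2 units, with adjusted p = 0.00428 for mcm3 and 0.00783 for mcm4. In all 4 genes both center tailbud arrays exceeded every other array, against 4.41% of all probe sets.

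The remaining ring subunits gave no call. For mcm7, read at 1719.9 and 1392 in the center tailbud against 740.1 to 1364 elsewhere, the arrays did not overlap either, but the difference of 0.52 (95% interval 0.15 to 0.88) had an adjusted p of 0.0933. The probe set of mcm6 was too dim to test, at 3.2 to 84.6 over the 12 arrays. That of mcm6l, an mcm6-like gene, was dim as well, at 2.0 to 120.2, with a difference of -0.78 ± 0.61.

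The origin recognition genes orc1 to orc6, whose products mark where helicases are loaded, differed by 0.33 to 0.74 log2 units with adjusted p from 0.0938 to 0.715, so none passed the test. The nearest was orc3, at 369 and 502 in the center tailbud against 154 to 384 elsewhere (median 276), with overlapping arrays. The helicase loaders gave no call either. The difference was 0.60 for cdc6 (adjusted p = 0.309) and 0.54 for cdt1 (adjusted p = 0.189). Geminin (gmnn), which inhibits Cdt1, differed by 0.12 with an interval from -0.38 to 0.61.

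Where 2.89% of all probe sets were called higher, 1 of the 6 tested genes that fire the loaded helicase was called, gins4. It encodes a subunit of the GINS complex, which joins the MCM ring and Cdc45 at the moving fork. Its signal was 719 and 426 in the center tailbud against 212 to 418 elsewhere (median 320.4), and the lower center array cleared the highest other array by little. The difference was 0.78 ± 0.22 (adjusted p = 0.0364), and the call was lost in 8 of 22 alternatives. Its partners gins2 and gins3 differed by 0.34 and 0.13 with adjusted p = 0.796 and 0.883, and gins1 was too dim to test. For cdc45 the center arrays, at 265 and 225, lay above the others at 75.8 to 192, but the difference of 0.94 ± 0.30 had an adjusted p of 0.0679. The kinase gene cdc7, whose product activates loaded MCM rings, read 181 and 160.4 against 59.8 to 150.4, with a difference of 0.71 (adjusted p = 0.247). Cyclin E (ccne1), the partner of Cdk2 at entry into S phase, differed by -0.14 with an interval from -0.87 to 0.60.

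Of the 9 polymerase and primase genes, 3 were higher in the center tailbud, against 2.89% of all probe sets. The catalytic subunit of polymerase delta, pold1, read 1183 and 846 in the center tailbud against 288 to 655 elsewhere (median 487). The groups did not overlap and differed by 1.08 ± 0.18 (2.12-fold; adjusted p = 0.000766). Both measured subunits of polymerase alpha, which lays down the RNA-DNA primer with primase, were called. The catalytic gene pola1 read 473 and 389.6 against 169 to 275 (median 207), a difference of 0.97 ± 0.22 (adjusted p = 0.00987). The accessory gene pola2 read 466 and 435 against 133 to 277 (median 210.1), a difference of 1.13 ± 0.26 (adjusted p = 0.00911).

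The rest of these genes did not pass. Among them pold2 at 0.89 (adjusted p = 0.0846) and pole2 at 0.73 (adjusted p = 0.165) came nearest. The primase gene prim1 differed by 0.09 with an interval from -0.48 to 0.66, and pole3, whose product is a histone-fold subunit of polymerase epsilon, by -0.16 with an interval from -0.72 to 0.39. The polymerase genes ranged from -0.16 to 1.13 in this comparison.

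Of the 13 genes for the clamp, its loader, single-strand binding and the joining of lagging-strand fragments, 4 were higher in the center tailbud. Of all probe sets, 2.89% were called higher. The estimates of all 13 lay above 0, against 49.2% of all tested probe sets. Replication factor C, the loader that opens the PCNA ring, supplied 3 of the 4. The signal of rfc4 was 705 and 575 against 242 to 408 (median 314), a difference of 0.97 ± 0.19 (adjusted p = 0.00334). That of rfc1, the large subunit, was 379 and 365 against 154 to 273 (median 207), a difference of 0.82 ± 0.22 (adjusted p = 0.0256). That of rfc3 was 576 and 519 against 249 to 428 (median 368), a difference of 0.61 ± 0.18 (adjusted p = 0.0435). The call of rfc3 was lost in 14 of 22 alternatives, both other scalings included. None of the 3 overlapped between the groups, where both center tailbud arrays exceeded all others in 4.41% of all probe sets. The arrays of rfc5 (0.45, adjusted p = 0.408) did overlap.

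DNA ligase 1, which seals the fragments, was the fourth called gene. For lig1 the center arrays read 1304 and 1130.3 against 683 to 927 (median 817), a difference of 0.59 ± 0.16 (adjusted p = 0.0312), a call lost in 8 of 22 alternatives. The clamp gene pcna read 3756 and 4536 against 2571 to 3492 (median 2967). Its arrays did not overlap, yet the difference of 0.46 (95% interval 0.17 to 0.74) had an adjusted p of 0.0543. The flap nuclease gene fen1 overlapped widely, with a difference of 0.32 (adjusted p = 0.454). The single-strand binding genes rpa1, rpa2 and rpa3 differed by 0.42, 0.49 and 0.68 (adjusted p = 0.254, 0.202 and 0.114). The RNase H2 genes rnaseh2a, rnaseh2b and rnaseh2c, whose products remove ribonucleotides from DNA, differed by 0.41, 0.17 and 0.52 without a call.

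**Figure D2:**
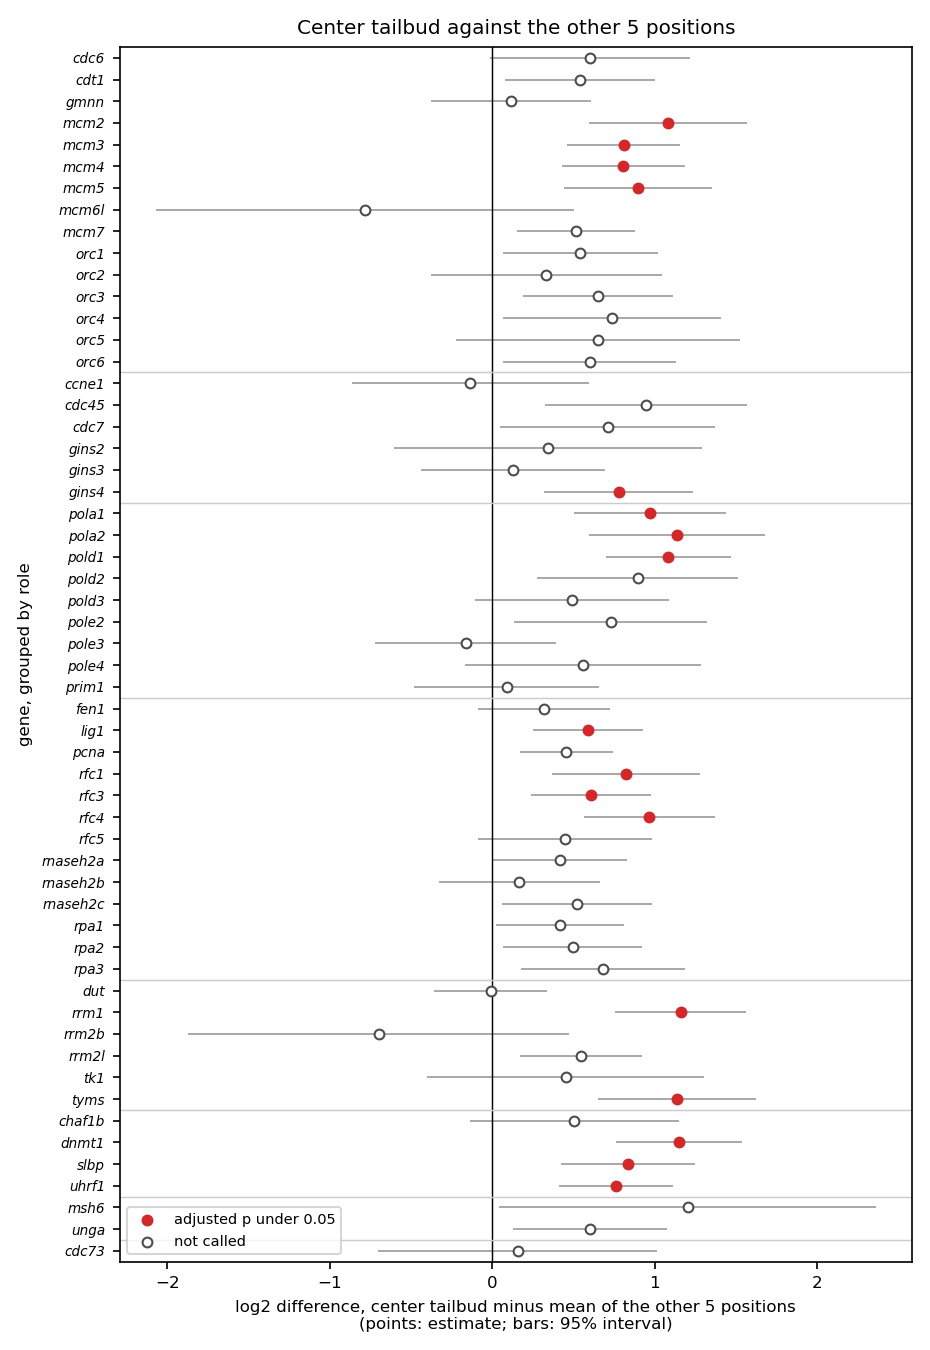
The horizontal axis is the difference in log2(signal + 12.2) between the center tailbud and the mean of the other 5 positions, with 95% intervals as bars, for the 56 tested genes grouped by role. Red points mark the 17 genes with an adjusted p under 0.05, and 51 of the 56 points lie to the right of 0.

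Nucleotide supply was split, with 2 of 6 tested genes higher in the center tailbud, against 2.89% of all probe sets. The large subunit of ribonucleotide reductase, rrm1, read 2164 and 1345 in the center tailbud against 437 to 1055 elsewhere (median 777), a difference of 1.16 ± 0.19 (2.23-fold; adjusted p = 0.000657). Thymidylate synthase, tyms, read 679 and 478 against 177 to 345 (median 255), a difference of 1.14 ± 0.23 (adjusted p = 0.00409). Neither gene overlapped between the groups, where both center tailbud arrays exceeded all others in 4.41% of all probe sets. The small-subunit gene rrm2l read 2978 and 2369.5 against 1055 to 2747 (median 1843), where an anterior PSM array exceeded a center tailbud array, and its difference of 0.55 had an adjusted p of 0.0824.

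The other nucleotide genes gave smaller or opposite estimates. The dUTPase gene dut, whose product keeps uracil out of DNA, read 978 and 791 against 566 to 1434, a difference of -0.01 with an interval from -0.36 to 0.34. The alternative small-subunit gene rrm2b (-0.70 ± 0.56) and thymidine kinase tk1 (0.45 ± 0.41) were dim and did not pass. Signals of rrm2b did not exceed 55.8 on any array.

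The genes that copy chromatin along with DNA had the largest called share, 3 of 4 tested, against 2.89% of all probe sets. With so few genes, this rank among the roles carries no conclusion. The maintenance DNA methyltransferase gene dnmt1 read 1321 and 1320.3 in the center tailbud against 425 to 863 elsewhere (median 567), a difference of 1.15 ± 0.19 (2.22-fold; adjusted p = 0.000481). Its partner uhrf1, which recruits Dnmt1 to freshly copied DNA, read 1061 and 924 against 412 to 779 (median 577), a difference of 0.76 ± 0.17 (adjusted p = 0.00747). The histone stem-loop binding gene slbp, needed to process histone messages, read 1374.5 and 1325 against 481 to 918 (median 790.3), a difference of 0.83 ± 0.20 (adjusted p = 0.0113). All 3 genes had center tailbud arrays above all others, against 4.41% of all probe sets. The chromatin assembly factor gene chaf1b differed by 0.51 (adjusted p = 0.451), and slbp2 was too dim to test. The call of dnmt1 held under all 22 alternative analyses, the leave-one-out fits included.

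The repair genes caught by the rule gave no call. The mismatch repair gene msh6 was dim, at 56.8 and 61.9 against 8.0 to 58.8, and its 2.30-fold difference had an interval from 0.04 to 2.36 on the log2 scale (adjusted p = 0.269). The uracil glycosylase gene unga read 344 and 282 against 163 to 267, without overlap, with a difference of 0.60 (adjusted p = 0.148). The elongation gene cdc73 differed by 0.15 with an interval from -0.70 to 1.01.

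Low signal left 4 genes out of the tests, namely mcm6, mcm9, gins1 and slbp2. Another 7 dim probe sets exist for mcm3, mcm6l, pold1, rfc4, tk1, uhrf1 and cdc73, of which 5 were tested. None of the 5 was called in the center tailbud comparison, where their differences ran from -0.51 to 0.50. For pold1 the dim probe set, at 5.1 to 55.3, gave 0.08 ± 0.58 beside 1.08 ± 0.18 for the bright one, so the probe sets disagree in size with a wide error on the dim one. When the probe sets of a gene were averaged, the center tailbud calls of mcm3, pold1, rfc4 and uhrf1 were lost, and 13 of the 17 genes were still called.

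Along the whole axis, 13 of the 56 genes fell and 1 rose in a linear trend over positions 1 to 6, against 6.12% of all probe sets called lower and 7.1% called higher. The members' median fitted change from position 1 to position 6 was -0.51 log2 units, and that of all probe sets was -0.13. The steepest fall was that of rrm1, by 1.45 ± 0.21 on the log2 scale (adjusted p = 7.16e-05), followed by cdc45 (-1.31 ± 0.32, adjusted p = 0.00925), pold1 (-1.16 ± 0.20, adjusted p = 0.000444), rpa3 (-1.03 ± 0.26, adjusted p = 0.0115) and cdt1 (-0.997 ± 0.24, adjusted p = 0.00752). The other falls were those of pola1, uhrf1, rfc1, rfc4, orc3, mcm4, dnmt1 and rpa1, between -0.94 and -0.63. A high first position alone can give such a fall. Of the 17 genes called in the center tailbud comparison, 8 were also called here. Among them dnmt1 had mean signals of 1321 at position 1, 545 at position 2 and 741 at position 6. The gene that rose was dut, by 0.57 ± 0.18 (adjusted p = 0.0416), a call lost in 13 of 22 alternatives, quantile normalization included. A test for any difference among the 6 positions called 9 of the 56, against 11.2% of all probe sets: dnmt1, dut, mcm3, pold1, rfc4, rrm1, rrm2l, tyms and uhrf1.

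Between the ends of the axis, 15 of the 56 genes were lower in the last somites than in the center tailbud and 0 were higher, where 4.56% of all probe sets were called lower and 5.41% higher. At an unadjusted p under 0.05 those counts were 27 and 1, where 21.0% of all probe sets passed in either direction. The median difference was -0.62 log2 units, against -0.14 over all probe sets, and in 39 genes (69.6%) both center tailbud arrays exceeded both somite arrays, against 33.5% of all probe sets. The signal of rrm1 read 2164 and 1345 at position 1 and 696 and 437 at position 6, 3.05-fold lower (-1.61 ± 0.25, adjusted p = 0.000212). That of pold1 read 1183 and 846 and then 383 and 288, 2.94-fold lower (-1.55 ± 0.24, adjusted p = 0.00018). That of tyms was 2.45-fold lower (-1.29 ± 0.30, adjusted p = 0.00806) and that of cdt1 1.96-fold lower (-0.97 ± 0.28, adjusted p = 0.0336). These comparisons share the center tailbud arrays with the comparison above, and 12 of the 17 genes called there were also called here.

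Both counts depend on how the arrays are scaled. When each array was centred on its median, 2 genes were called in the trend (dut and rrm1) and 2 between the ends (pold1 and rrm1). The median of all probe sets shifted to 0.24 and 0.20. The members' medians relative to it were -0.38 and -0.47 log2 units, and their own medians shrank. This centring shifts all probe sets of an array alike, so the relative medians could hardly change and carry no conclusion. Without center tailbud replicate 1 the trend called 6 genes and the ends 5, without somite replicate 2 they called 6 and 5, and without center tailbud replicate 2 the ends called 9. The trend and end-to-end calls of rrm1 held under every alternative run.

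**Figure D3:**
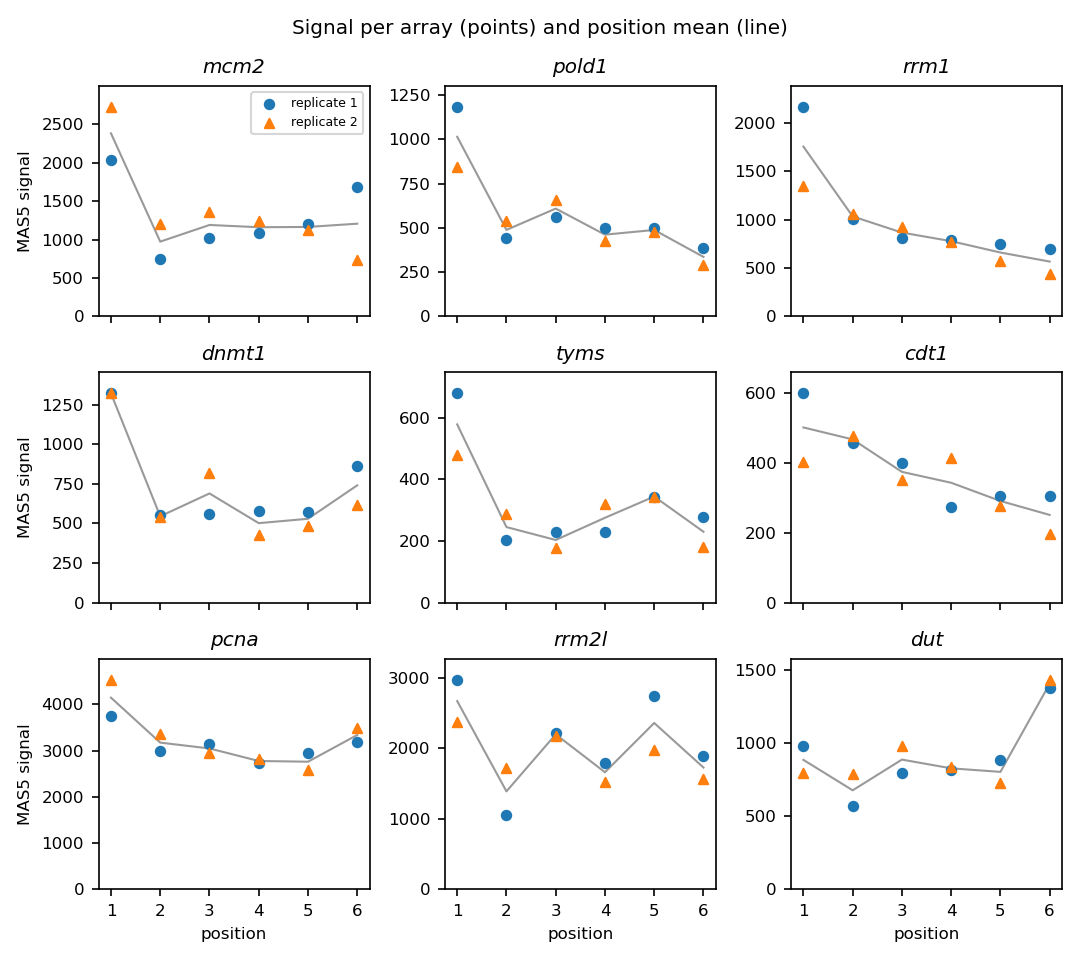
Each panel is a gene, the horizontal axis is the position from 1 (center tailbud) to 6 (last somites), and the vertical axis is the MAS5 signal on a linear scale from 0. Points are arrays and lines join position means: mcm2, pold1, dnmt1 and tyms are highest at position 1 and have no call over positions 2 to 6, rrm1 and cdt1 decline along the axis, and dut is highest at position 6.

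Over positions 2 to 6, 1 of the 56 genes rose (dut) and 2 fell (cdt1 and rrm1) in a linear trend, where 6.78% of all probe sets were called higher and 7.6% lower. The test for any difference among these 5 positions called 1 gene, dut, against 7.98% of all probe sets. Both counts depend on the scaling. The trend called 13 genes under median centring, all of them rising, and 8 under quantile normalization. The test for any difference called 9 and 2, the latter without dut. The shares of all probe sets called under these scalings are not given here, so these counts are not read as a result about the members. The members' median fitted change was -0.10 against -0.17 over all probe sets, and under median centring both turned positive, to 0.62 and 0.54, so no direction is given for the group.

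Of the 3 genes called over positions 2 to 6, dut and rrm1 belong to nucleotide supply and cdt1 to licensing. The licensing factor gene cdt1 read 457 and 478 in the tailbud flank and 307 and 196 in the somites, a fitted fall of 0.86 ± 0.25 on the log2 scale (adjusted p = 0.0277). For rrm1 the flank arrays read 1010.0 and 1055 and the somite arrays 696 and 437, and the fitted change was -0.87 ± 0.22 (adjusted p = 0.013). Arrays of the flank and the somites did not overlap in either gene. The signal of dut rose from 566 and 786 in the flank to 1378 and 1434 in the somites (0.79 ± 0.19, adjusted p = 0.00904), and its somite arrays exceeded all others. Between these pieces its means did not climb, at 886, 827 and 802 for positions 3, 4 and 5. The calls of cdt1 and rrm1 were both lost under median centring and without somite replicate 2. That of cdt1 was lost also without either flank replicate, posterior PSM replicate 1 or anterior PSM replicate 2, and that of dut was lost without flank replicate 1. All 3 were lost when the variances were not modelled on intensity and without the 3 arrays of highest median signal.

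Among the steps between neighbouring positions, only that from center tailbud to flank held calls. There 5 of the 56 genes fell and 0 rose, against 0.424% of all probe sets called lower and 1.11% higher. The genes were mcm2 (-1.31 ± 0.30, adjusted p = 0.0318), dnmt1 (-1.26 ± 0.24, adjusted p = 0.00719), slbp (-1.03 ± 0.25, adjusted p = 0.0456), pold1 (-1.02 ± 0.24, adjusted p = 0.0329) and rrm2l (-0.97 ± 0.23, adjusted p = 0.0379). The flank arrays of dnmt1, at 551 and 539.6, were among its lowest, and those of rrm2l read 1055 and 1725 before the posterior PSM arrays at 2226 and 2175. The count also moved with the processing, to 11 under median centring, 2 under quantile normalization, 1 with probe sets averaged per gene, 1 with only the 4 arrays of both positions, and 0 both without the variance trend and without the 3 arrays of highest median signal. The members' median over this step was -0.59 against 0.05 over all probe sets. The other 4 steps called 0 of the 56 genes in limma, where 0.129%, 0.221%, 0.212% and 1.21% of all probe sets were called. At an unadjusted p under 0.05 they held 4, 1, 3 and 4 of the 56 genes, against 9.5%, 7.29%, 7.07% and 12.1% of all probe sets. Leaving out an array moved the count of the step to the flank between 1 and 9: it was 9 without flank replicate 2, 1 without flank replicate 1, center tailbud replicate 2 or either posterior PSM replicate, 2 or 3 without center tailbud replicate 1 or an array of the center or anterior PSM, and 7 without either somite replicate.

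**Figure D4:**
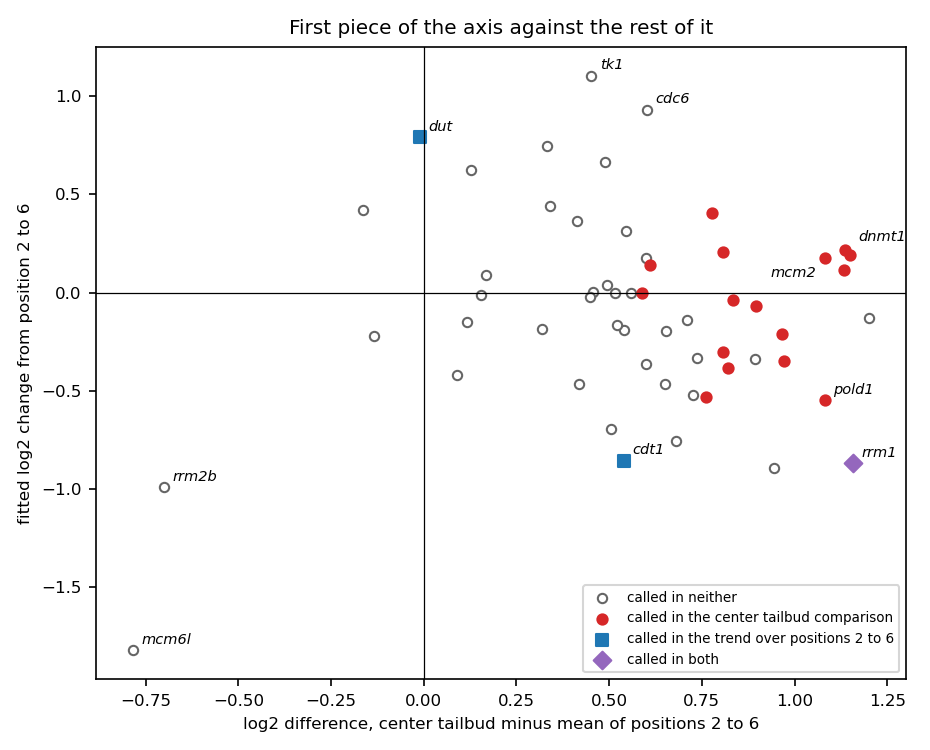
Points are the 56 genes: the horizontal axis is the log2 difference between the center tailbud and the mean of positions 2 to 6, and the vertical axis the fitted log2 change from position 2 to position 6. The 17 genes called in the first comparison lie at 0.59 or more on the horizontal axis and on both sides of 0 on the vertical axis, and rrm1 is the gene called in both.

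Markers of other tissues also differed between the pieces. The summed signal of the 15 epidermal markers on the array, of 17 listed, was 1420.3 to 2168 in the center tailbud, 4786 to 11733 over positions 2 to 5 and 1312 to 3646 in the last somites. The mean centred log2 signal of the replication genes was 0.59 and 0.35 in the center tailbud and -0.04 and -0.24 in the somites. Of the 13 epidermal markers tested, 8 were lower in the center tailbud, against 3.54% of all probe sets. Without the 3 arrays of highest median signal, an alternative chosen after seeing the data, 13 of the replication genes were called in the center tailbud comparison. The summed signal of 13 neural markers was 551 and 2002 on the center tailbud arrays and 163 to 1836 elsewhere. In that sum, replicate 2 also read above replicate 1 at every other position except the tailbud flank. For 8 notochord markers on the array, of 9 listed, the sum was 2048 and 3240 on the center tailbud arrays. Among them noto read 53.3 and 1282 on these arrays, whereas tbxta ran the other way, at 1949.5 and 1390.0. The summed signal of 11 muscle markers on the array, of 16 listed, was 536 and 2477.5 on the same arrays and 926 to 9976 elsewhere. Of the 10 muscle markers tested, 4 were lower in the center tailbud, against 3.54% of all probe sets. In the trend over positions 1 to 6, 7 of them rose, against 7.1%. The summed signal of 7 blood and endothelial markers on the array, of 12 listed, was 239 to 247 in the center tailbud and 392 to 1881 elsewhere. The part of these tissues in the difference of the replication genes was not tested.

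Of 36 listed regulators of entry into S phase, 22 were on the array and tested. In the center tailbud 2 were higher and 1 was lower, against 2.89% and 3.54% of all probe sets, with a median difference of 0.24. The kinase gene cdk2, whose product drives S phase with cyclins E and A, read 751 and 587 in the center tailbud and at most 387 elsewhere, a difference of 1.12 ± 0.19 (adjusted p = 0.000661). The growth regulator mycn read 455 and 909 there and 43.0 and 82.7 in the somites, with a center tailbud difference of 2.38 ± 0.32 (adjusted p = 8.05e-05). Its relative mycb was the reverse, at 34.1 and 53.5 in the center tailbud and 195 to 442 elsewhere (-2.64 ± 0.24, adjusted p = 4.64e-07). Along the trend over positions 1 to 6, 4 of the 22 rose and 2 fell (cdk2 and mycn), against 7.1% and 6.12% of all probe sets. The list's median was -0.17. Those that rose were mycb, myca, tfdp2 and tfdp1b. Over the alternative analyses the fitted rise was 1.82 to 2.72 for mycb and 1.26 to 2.62 for myca. The genes tfdp2 and tfdp1b, partners of E2F factors, rose by 2.00 ± 0.25 and 0.82 ± 0.16 (adjusted p = 1.3e-05 and 0.00126). The E2F genes e2f3 to e2f8 and the pocket-protein genes rb1 and rbl1 gave no call in the center tailbud, with differences from -0.83 (e2f5) to 0.75 (e2f6).

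Of 60 listed genes for fork protection, checkpoint, repair, chromatin and nucleotide synthesis that the rule did not take, 34 were tested. In the center tailbud 4 were higher and 1 was lower, against 2.89% and 3.54% of all probe sets, with a median difference of 0.33. In the trend over positions 1 to 6, 3 rose (hmgb2a and the nucleotide synthesis genes umps and ctps1a) and 1 fell (hells), against 7.1% and 6.12%. The list's median fitted change in that trend was -0.39. The histone chaperone nasp read 874 and 846 in the center tailbud against 267 to 574 elsewhere, a difference of 1.13 ± 0.19 (adjusted p = 0.000832). The alternative clamp loader gene chtf18 (1.04 ± 0.23, adjusted p = 0.00854), the checkpoint kinase chek1 (1.02 ± 0.25, adjusted p = 0.0166) and the chromatin remodeller hells (0.93 ± 0.23, adjusted p = 0.0137) were higher as well. The chromatin protein gene hmgb2a was lower, with differences from -0.86 to -0.44 over the alternative analyses and the call lost in 6 of 22. It read 361 and 450.1 in the center tailbud and 1096 and 1091 in the somites. Between these ends its difference was larger, 1.26 to 1.75 over the alternatives. Without center tailbud replicate 1 only nasp of these 5 genes kept its call, and without replicate 2 nasp and hells kept theirs.

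Of 42 tested mitosis genes, 6 were higher in the center tailbud and 0 lower, against 2.89% and 3.54% of all probe sets, with a median difference of 0.43, and the largest were ccnb2 (0.94), ccna2 (0.93), kifc1 (0.79) and smc2 (0.76). In the trend over positions 1 to 6, 10 of the 42 fell and 0 rose, against 6.12% and 7.1% of all probe sets. Between positions 6 and 1, 10 were lower and 0 higher, against 4.56% and 5.41%. Under median centring, kifc1 was the only mitosis gene to keep its call in that trend. Over positions 2 to 6, 6 of the 42 mitosis genes fell and 0 rose, against 7.6% and 6.78% of all probe sets. Among them kifc1 fell by 1.36 ± 0.20 on the log2 scale (adjusted p = 0.000141) and ccna2 by 0.81 ± 0.24 (adjusted p = 0.0252). How the falls over positions 2 to 6 change under other scalings was not examined. Without center tailbud replicate 1 none of the 6 kept its center tailbud call, and without replicate 2 only ncapg kept it. The difference between the gene lists was not tested.

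**Figure D5:**
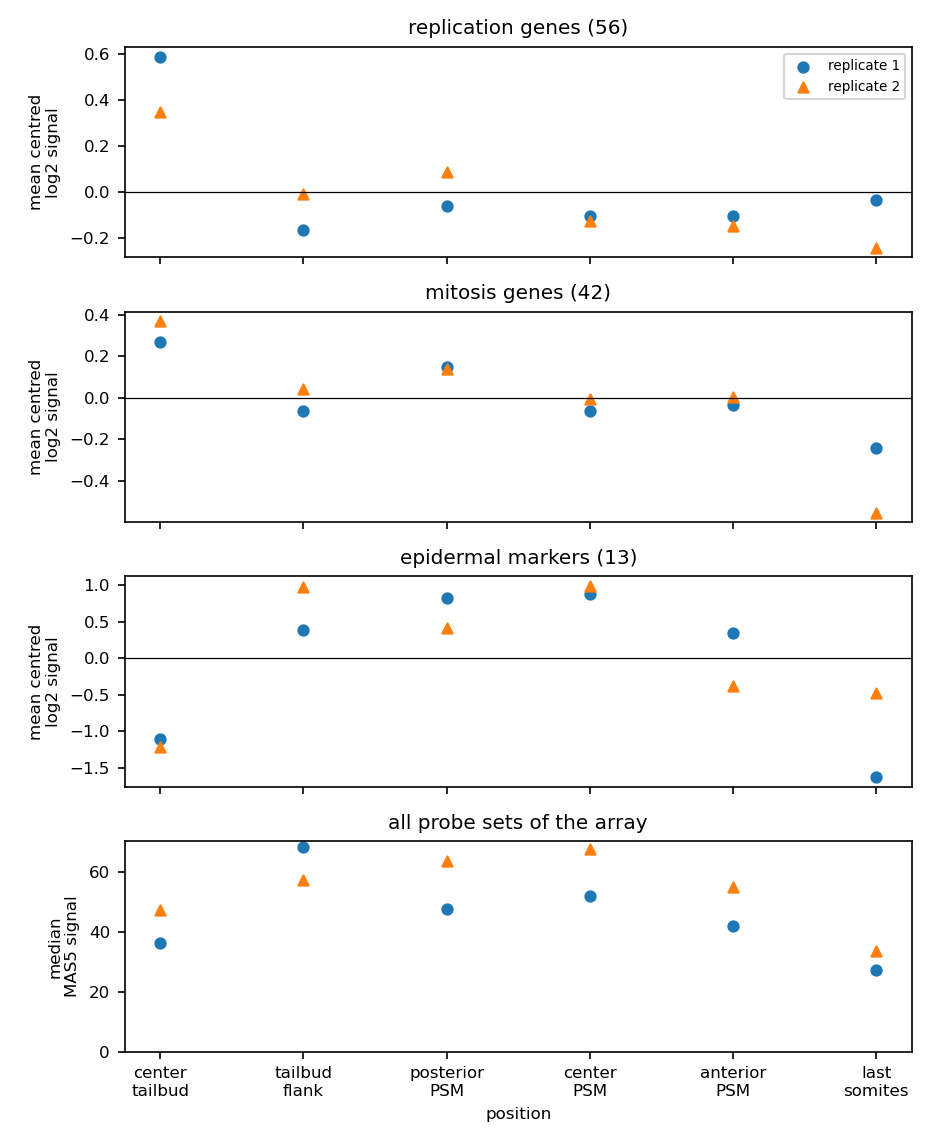
Panels from top to bottom give, per array, the mean centred log2 signal of the 56 replication genes, of 42 mitosis genes and of 13 tested epidermal markers, and the median MAS5 signal of all probe sets, against position. The replication mean is highest on the center tailbud arrays (0.59 and 0.35), as is the mitosis mean (0.27 and 0.37). The mitosis mean is lowest on the somite arrays (-0.24 and -0.55), and the epidermal mean is low at both ends.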

How the data were processed

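Total RNA from 12 tissue samples was hybridized to Affymetrix Zebrafish arrays. The authors deposited linear intensity values, 1 per probe set and array, which the submitters' processing notes call MAS5, and no further scaling was applied. Of 15617 probe sets, 115 controls were left out, and 10795 of the rest carried 1 gene symbol in the platform annotation, 135 several and 4572 none. The values were analysed as log2(signal + 12.2), the offset being the 25th percentile, so folds of dim genes are understated. The 30% of probe sets with the lowest mean log2 value were left out (4651), and 10851 were tested.

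limma 3.58.1 (R 4.3.3) fitted the means of the 6 positions to all arrays together, and variances were moderated along intensity (6 residual and 12.8 prior degrees of freedom). Tests were two-sided, p-values were adjusted by Benjamini-Hochberg over all probe sets within each of 11 comparisons, and called means an adjusted p under 0.05. Errors are SEs of log2 differences, and 2 arrays per position limit the precision. The script was tested on simulated data.

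The members and lists were chosen with earlier results of these data known. Every member found by the symbol rule may be named, and listed regulators are named if called, at most 4 per list and direction. Values of single arrays are given for the called members except rpa1 and rpa3, and for some members without a call. The E2F genes e2f3 to e2f8, rb1 and rbl1 were named after their values were seen. Over all tested probe sets, the deviations of same-numbered replicates correlated between -0.07 and 0.08 over 15 position pairs. Array medians were nevertheless higher in replicate 2 at every position except the tailbud flank, for example 36.2 and 47.5 in the center tailbud. Neural marker means were higher in replicate 2 at the same positions. Whether same-numbered samples share a source was not tested. Alternatives were other scalings, offsets, filters and variance models, 1 value per gene, and leaving out arrays. No promoter or protein sequence was used here.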

Additional observations from a re-analysis of the deposited data

How the results depend on the processing

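The center tailbud comparison called 17 members, 16 under quantile normalization (14 of them among the 17) and 16 under median centring (15 of them among the 17), and 2 without the intensity trend of the variances. That same change left 0 of the 9 genes in the test among all positions, 5 of 14 in the trend over positions 1 to 6, 3 of 15 between the ends, 0 of 1 and 0 of 3 over positions 2 to 6, and 0 of 5 in the step to the flank.

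Median centring gave 18 genes among all positions, 2 in the trend, 2 between the ends, 9 and 13 over positions 2 to 6, 11 in the step to the flank and 1 (dut) in the last step. It turned the members' median over positions 2 to 6 from -0.10 to 0.62. Shares of all probe sets called are given for the reported fit only.

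With 1 value per gene, 4 genes were called among all positions and 1 in the step to the flank. Quantile normalization called 2 and 8 over positions 2 to 6 and 2 in the step to the flank. Using only the 4 arrays of the positions compared left 6 genes between the ends and 1 in the step to the flank. Without the 3 arrays of highest median signal, a choice made after seeing the data, the counts were 3 among all positions, 8 in the trend, 0 and 0 over positions 2 to 6 and 0 in the step to the flank.

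Leaving out 1 array at a time gave 4 to 13 genes among all positions, 6 to 15 in the trend, 5 to 18 between the ends, 2 to 20 in the center tailbud, 0 to 4 and 1 to 6 over positions 2 to 6, 1 to 9 in the step to the flank and 0 to 1 in the next step. The test among all positions fell to 4 without center tailbud replicate 1 and to 5 without posterior PSM replicate 2. The trend over positions 2 to 6 went to 1 without flank replicate 1 or somite replicate 2 and to 6 without flank replicate 2, and the test for any difference there went to 0 without flank replicate 1 or either somite replicate and to 4 without flank replicate 2.

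Where counts moved, the cause was not tested, except that fewer arrays or another estimate per gene enter by construction.

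The reported fit did not use the replicate numbers to pair samples. With the replicate block 17 members were called in the center tailbud, and no count moved by over 1.5 times.

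Of 2339 changes of single genes recomputed, 0 reversed and 1845 kept their call. These changes had all been called in the reported fit, and they include genes of the other lists. Most refits used nearly the same arrays, so the absence of reversals was close to fixed in advance and carries no conclusion. Of 201 median changes recomputed for the members, 187 had the sign of the reported median. Each position mean rests on 2 arrays, and dim probe sets have wide errors.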
